A study of Homo sapiens with 4 samples.

Results

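Nuclear receptors are ligand-regulated transcription factors that bind DNA through zinc fingers, mostly as dimers. Many of them pair with the retinoid X receptors, which also serve the retinoic acid receptors, so that retinoid signalling and lipid, thyroid hormone and vitamin D signalling share partners and closely related DNA sites. Some members have a known hormone or lipid ligand, and others are orphans that act mainly through their own abundance. In sympathoadrenal and neural crest tissue the orphan COUP-TF and NR4A receptors are best known for roles in development and in the response to activity.

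The genes described here are 40 nuclear receptor genes outside the retinoic acid and retinoid X receptors, picked out by gene symbol as the superfamily without those genes. All 40 had a row in the deposited table of 55765 gene symbols. They were measured by RNA sequencing in SK-N-BE(2)C, an established MYCN-amplified neuroblastoma line, after 144 h in 10 µM all-trans retinoic acid (ATRA) or in ethanol, the solvent. There were 2 libraries per group, called 1 where the title has no number and 2 where it has that number, and every library came from the same cell line, grown in RPMI with serum. Whether the libraries of a group were separate cultures is not stated, so a p-value here reflects the spread between libraries, which may be technical, and nothing wider.

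Total counts lay between 12850462 and 19883465 per library. The libraries also parted by number: mitochondrial ribosomal RNA took 2.49% of counts in ATRA 1 and 5.96% in ethanol 1, against 0.130% in ATRA 2 and 0.0291% in ethanol 2. Differences within each number are therefore given beside the main values. As a check of the labels, there were 2066 and 4466 reads of CYP26A1, a retinoic acid-degrading enzyme, in ATRA cells and 0 reads in both ethanol libraries. All 12 sympathoadrenal markers listed had reads in every library, with PHOX2A at 364 CPM in ATRA cells and 193 CPM in ethanol cells (CPM, read counts normalised to the scaled library size). These are bulk samples, in which fewer cells of a type and less RNA per cell cannot be told apart.

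No receptor gene passed the test. Of the 40 members, 27 passed the filter on low counts and 0 were called in either direction at an adjusted p of 0.05 (edgeR quasi-likelihood, Benjamini-Hochberg over all genes), beside 0.698% of the 18900 genes tested (0.545% higher and 0.153% lower). At this background a count of 0 among 27 says little about the receptors. An unadjusted p under 0.05 was reached by 3 of the 27, namely PPARG, PPARD and NR2F2, beside 15.9% of all genes. Among the alternatives, DESeq2 called 1 member, PPARG, beside 6.18% of its genes, and limma-voom called 0 beside 0.265%. Counts of 0 were also found with median-ratio size factors (0.725% of all genes called), with library size alone (0.624%) and without mitochondrially encoded genes (0.916%). The fit with every gene that had a read called PPARG and PPARD (4.88% of all genes). Leaving out ATRA 1 called PPARG (4.20%), leaving out ATRA 2 called PPARG and PPARD (6.96%), leaving out ethanol 1 called PPARG (4.35%), and leaving out ethanol 2 called PPARG, PPARD and NR2F2 (5.88%). The median log2 fold change of ATRA over ethanol was -0.02 over the 27 and 0.01 over all genes tested. A difference of at least 1 on the log2 scale in either direction was seen for 5 members, beside 18.9% of all genes. Both ATRA libraries lay above both ethanol libraries for 6 members and below them for 6, beside 23.8% and 21.7% of all genes, and the groups overlapped for 15 (45.5% of all genes did not overlap).

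**Figure D1:**
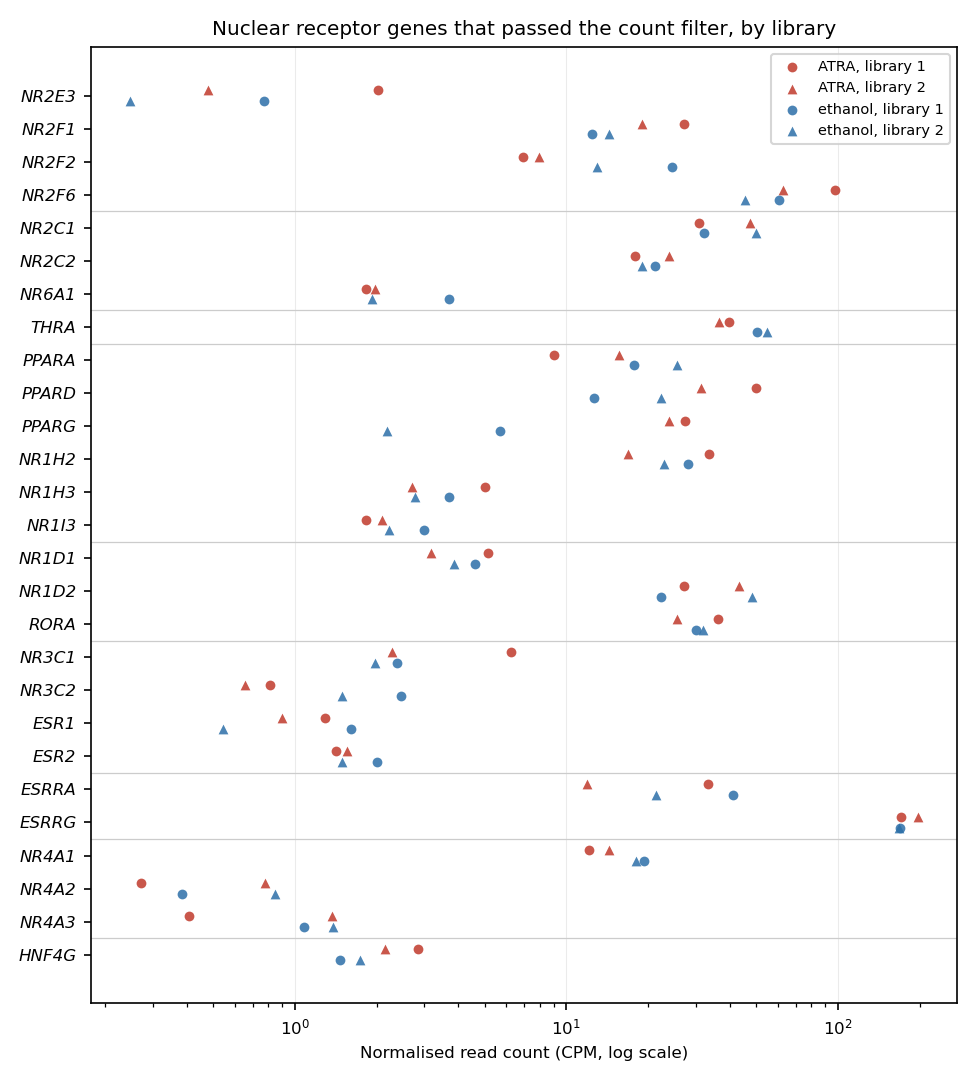
Normalised read counts (CPM, log axis) of the 27 receptor genes that passed the filter, one row per gene, with a point for each of the 2 ATRA and 2 ethanol libraries; grey lines part the role groups. PPARG shows the widest gap between groups, with ATRA at 23.9 and 27.4 CPM and ethanol at 2.18 and 5.70 CPM, while ESRRG lies highest and hardly differs.

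**Figure D2:**
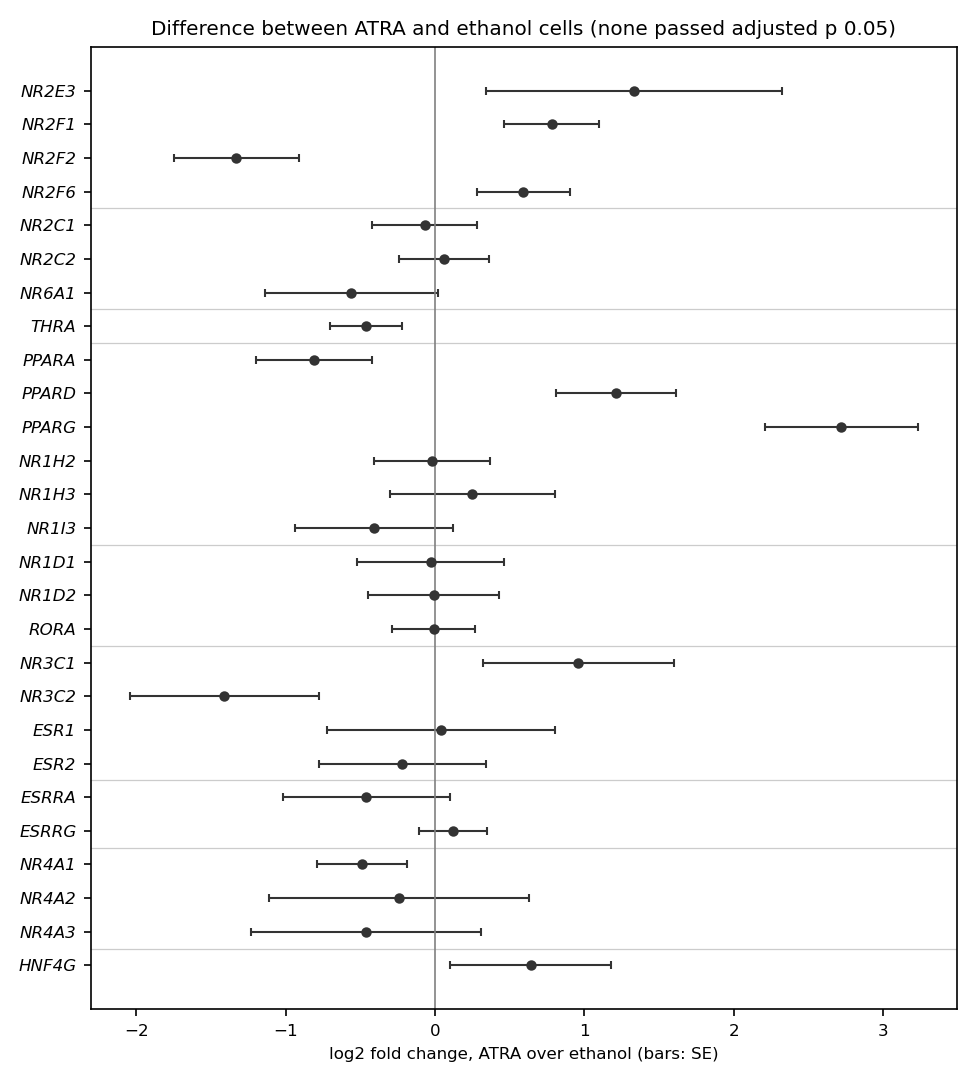
Log2 fold change of ATRA over ethanol for the same 27 genes, with bars for the standard error. PPARG stands at 2.72, NR3C2 at -1.41, and 15 of the 27 lie within 1 standard error of 0.

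The repertoire was led by the same receptors in both conditions. Levels were compared between genes per kilobase of exon (CPM per kb), with exon lengths from GENCODE 29, which may differ from the annotation used for counting. NR2F6, an orphan of the COUP-TF family, was first, with 36.4 and 23.5 CPM per kb in ATRA cells, against 22.7 and 17.1 CPM per kb in ethanol cells. ESRRG, an orphan receptor tied to mitochondrial metabolism, was second, with 15.6 and 18.0 CPM per kb in ATRA cells and 15.6 and 15.4 CPM per kb in ethanol cells. NR2F6 lay above ESRRG in every library. After them came PPARD (9.10), ESRRA (7.48) and NR1H2 (6.71) by mean CPM per kb in ATRA cells, and ESRRA (10.3), THRA (7.56) and NR1H2 (6.80) in ethanol cells. The values of these neighbours overlapped between libraries, so their order is not resolved. By mean level PPARD ranked 3 in ATRA cells and 8 in ethanol cells, and PPARG ranked 8 and 16. Summed over all 40 genes, the receptors took 649.7 and 598.9 CPM in ATRA cells, against 577 and 579.6 CPM in ethanol cells.

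The lipid sensors held the largest difference. PPARG (chromosome 3), the receptor for fatty acid derivatives that drives fat cell differentiation, had 404 and 399 reads in ATRA cells, against 74 and 44 reads in ethanol cells. These were 27.4 and 23.9 CPM in ATRA cells, against 5.70 and 2.18 CPM in ethanol cells. The groups were far apart, and both ethanol libraries were low. The log2 fold change was 2.72 ± 0.51 (SE), a 6.57-fold higher mean, with differences of 2.24 within number 1 and 3.38 within number 2. Its adjusted p of 0.0816 missed the threshold (edgeR quasi-likelihood). It passed in 7 of 11 alternatives, among them DESeq2 (adjusted p 8.46e-06) and each fit without 1 library (adjusted p from 4.32e-05 to 0.00831, edgeR quasi-likelihood). Those 7 called between 4.20% and 21.7% of all genes.

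Of the PPARG starts that RefSeq annotates, 6 have a promoter window here, and the read counts per gene do not tell which start was used. The sequences of the pair of windows with the most receptor core hexamers are shown because PPARG is the member with the largest difference. They are the 250 bases before a start on the plus strand of GRCh38.p14, at chr3:12287118-12287367 and chr3:12351167-12351416, a build that is not that of the counts. Capitals mark the core hexamer of nuclear receptor sites, searched on both strands. Its classic spelling is AGGTCA. The search also covered the close variant AGTTCA. A further variant searched was the hexamer GGGTCA. The remaining variant searched was GGTTCA.
PPARG upstream window: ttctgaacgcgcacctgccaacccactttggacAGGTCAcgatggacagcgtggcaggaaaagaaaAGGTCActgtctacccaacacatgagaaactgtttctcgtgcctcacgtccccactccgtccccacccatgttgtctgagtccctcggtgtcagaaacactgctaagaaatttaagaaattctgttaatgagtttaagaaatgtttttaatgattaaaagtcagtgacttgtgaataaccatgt
PPARG downstream window: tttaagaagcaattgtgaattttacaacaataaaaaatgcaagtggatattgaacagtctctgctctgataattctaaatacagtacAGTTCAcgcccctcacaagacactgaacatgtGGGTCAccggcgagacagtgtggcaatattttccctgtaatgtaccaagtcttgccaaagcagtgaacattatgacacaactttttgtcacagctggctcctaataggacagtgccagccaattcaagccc
Each holds 2 such hexamers, at -217 and -184 in the upstream window and at -163 and -131 in the downstream one, counted from the start, all on the plus strand. Across all 35116 promoter windows of 300 bases, 38.6% hold at least 1 hexamer, so a single match is common. The share of windows with 2 or more was not counted, and the windows shown were picked for holding the most. Direct repeats of these hexamers at spacings of 1 to 5 bases, the layout that dimers with retinoid X receptors bind, were found in 0 of the 35 members with a window and in 0.41% of all windows. This says only that these letters are not in these windows.

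PPARD (chromosome 6), the widely expressed relative that promotes fatty acid oxidation, had 49.9 and 31.3 CPM in ATRA cells, against 12.6 and 22.4 CPM in ethanol cells. The groups did not overlap, but ATRA 2 and ethanol 2 were close. Its log2 fold change was 1.21 ± 0.40, with 1.97 within number 1 and 0.48 within number 2; the test gave an adjusted p of 0.217 (edgeR quasi-likelihood). PPARA, the catabolic receptor of liver and muscle, had 9.01 and 15.7 CPM in ATRA cells and 17.7 and 25.6 CPM in ethanol cells. Its log2 fold change was -0.81 ± 0.39 (adjusted p 0.395, edgeR quasi-likelihood), with -0.97 and -0.70 within numbers 1 and 2. PPARA and, further on, NR2F1 are given in full because they are relatives of members chosen by rule, a choice made after their values were seen.

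The makeup of the PPAR family is given as a description. By CPM per kb, PPARG took 33.7% and 39.1% of the family's summed level in ATRA cells, against 23.1% and 6.46% in ethanol cells. PPARA took 3.81% and 8.80% in ATRA cells, against 24.7% and 26.03% in ethanol cells. PPARD was the largest share in every library, at 62.5% and 52.1% in ATRA cells and 52.2% and 67.5% in ethanol cells, and these overlapped. The summed level of all 3 genes was 17.9 and 13.5 CPM per kb in ATRA cells, against 5.43 and 7.44 CPM per kb in ethanol cells. With 2 libraries per group an exact two-sided permutation test cannot go below a p of 0.333, so no test of these shares is given.

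**Figure D3:**
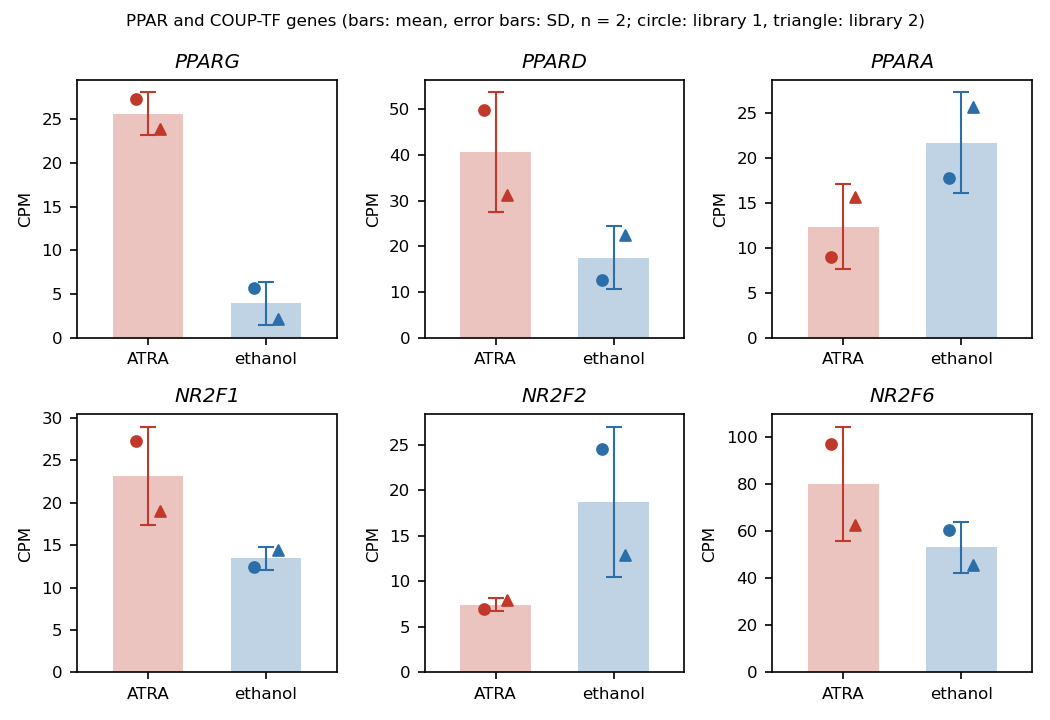
Normalised read counts (CPM) of the PPAR genes and of 3 COUP-TF family genes in ATRA and ethanol cells; bars are means, error bars the SD with n = 2, circles library 1 and triangles library 2. PPARG averaged 25.6 CPM in ATRA cells and 3.94 CPM in ethanol cells, and NR2F2 averaged 7.43 CPM in ATRA cells and 18.7 CPM in ethanol cells.

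**Figure D4:**
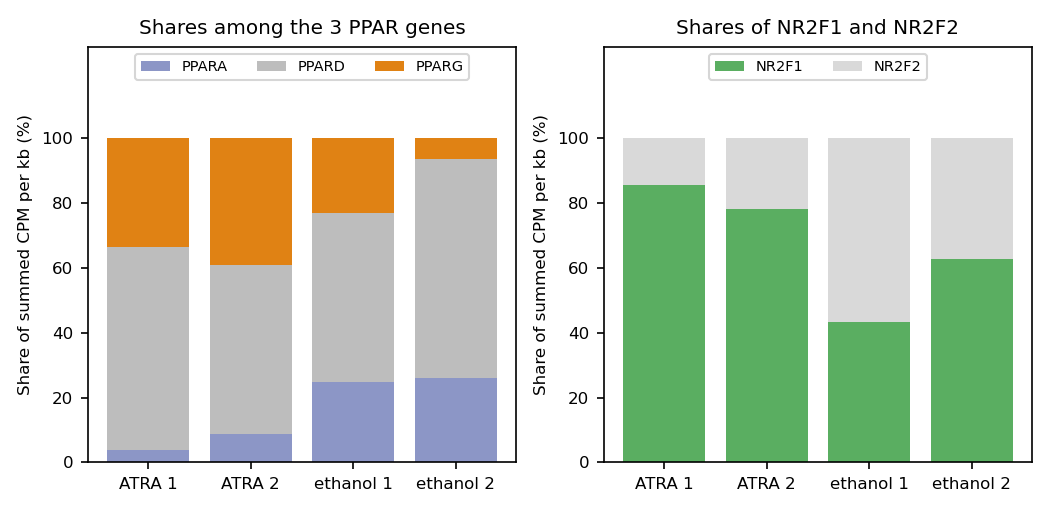
Shares of the summed CPM per kb in each library, for the 3 PPAR genes (left) and for NR2F1 and NR2F2 (right). PPARA took 3.81% and 8.80% in ATRA libraries against 24.7% and 26.03% in ethanol libraries, and NR2F1 took 85.5% and 78.2% in ATRA libraries against 43.2% and 62.5% in ethanol libraries.

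The other lipid and xenobiotic sensors were close to 0 in log2 fold change relative to their errors, or barely present. NR1H2 and NR1H3, the liver X receptors for oxysterols, were at log2 -0.02 ± 0.39 and 0.25 ± 0.55. NR1I3, the constitutive androstane receptor, was at -0.41 ± 0.53 on the log2 scale, from 27 and 35 reads in ATRA cells and 39 and 45 reads in ethanol cells. All 3 had adjusted p of 0.815 or more (edgeR quasi-likelihood). The pregnane receptor NR1I2 had 3 and 8 reads in ATRA cells and 6 and 3 in ethanol cells, and was not tested. The bile acid receptor NR1H4 had 0 reads in all 4 libraries, which allows up to 0.203 and 0.179 CPM in the ATRA libraries and 0.231 and 0.149 CPM in the ethanol libraries (3 counts per library, counting error only).

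In the COUP-TF group the close relatives NR2F1 and NR2F2 lay on opposite sides. NR2F2 (chromosome 15), known for roles in vessel and organ development, had 6.91 and 7.96 CPM in ATRA cells, against 24.6 and 12.9 CPM in ethanol cells. Both ATRA libraries were low, and ethanol 1 was the highest. Its log2 fold change was -1.33 ± 0.42, with -1.81 within number 1 and -0.69 within number 2, and its adjusted p was 0.199 (edgeR quasi-likelihood). It passed without ethanol 2 (log2 -1.71, adjusted p 0.0386) and was at -0.84 without ethanol 1 (adjusted p 0.626, edgeR quasi-likelihood).

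NR2F1 (chromosome 5), which patterns the developing cortex and guides neural crest gene activity, had 27.2 and 19.0 CPM in ATRA cells and 12.5 and 14.4 CPM in ethanol cells. The groups did not overlap. Its log2 fold change was 0.78 ± 0.32 (adjusted p 0.316, edgeR quasi-likelihood), with 1.12 and 0.40 within numbers 1 and 2. The antisense gene NR2F1-AS1, which shares exon bases with NR2F1, was at 0.89 ± 0.37 on the log2 scale (adjusted p 0.328, edgeR quasi-likelihood). The library kit marks strand, but the strand setting of the counting is not given, so reads of these neighbours could be mixed.

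Within a library, the ratio of NR2F1 to NR2F2 per kilobase was 5.90 and 3.58 in ATRA cells, against 0.760 and 1.67 in ethanol cells, with NR2F1 below NR2F2 in ethanol 1. The ratio was thus higher in both ATRA libraries. The summed level of the pair was 7.38 and 5.64 CPM per kb in ATRA cells and 6.69 and 5.35 CPM per kb in ethanol cells, which overlapped. NR2F6 (chromosome 19) had 97.4 and 62.9 CPM in ATRA cells and 60.8 and 45.6 CPM in ethanol cells, a log2 fold change of 0.59 ± 0.31 (adjusted p 0.442, edgeR quasi-likelihood). Its ATRA 2 and ethanol 1 values were nearly equal. NR2E3, a photoreceptor regulator, had 30 and 8 reads in ATRA cells and 10 and 5 in ethanol cells, and the neural stem cell receptor NR2E1 had 0 in both ATRA libraries and 3 and 0 in the ethanol libraries.

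Of the 4 steroid hormone receptors tested, NR3C2 alone had groups that did not overlap. NR3C2 (chromosome 4), the mineralocorticoid receptor, which binds aldosterone and cortisol, had 12 and 11 reads in ATRA cells, against 32 and 30 reads in ethanol cells. In CPM this was 0.813 and 0.658 in ATRA cells, against 2.46 and 1.49 in ethanol cells. Its log2 fold change was -1.41 ± 0.63, with -1.47 and -1.04 within numbers 1 and 2, and passed neither in the main test (adjusted p 0.352) nor in any alternative (0.0763 or more; edgeR quasi-likelihood, DESeq2 and limma-voom). The glucocorticoid receptor NR3C1 had 6.23 and 2.27 CPM in ATRA cells and 2.39 and 1.98 CPM in ethanol cells. ATRA 1 alone was high, and the groups overlapped (log2 0.96 ± 0.64; adjusted p 0.567, edgeR quasi-likelihood). The estrogen receptors ESR1 and ESR2 were at log2 0.04 ± 0.76 and -0.22 ± 0.56, each from at most 30 reads per library. The progesterone receptor PGR had 0 and 3 reads in ATRA cells and 0 and 1 in ethanol cells.

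ESRRG (chromosome 1), the most abundant receptor in reads, had 170.6 and 196.8 CPM in ATRA cells, against 169.9 and 168.3 CPM in ethanol cells. Both ATRA libraries were higher, but ATRA 1 by very little. It took 26.3% and 32.9% of all receptor reads in ATRA cells and 29.45% and 29.04% in ethanol cells, and its log2 fold change was 0.12 ± 0.23 (adjusted p 0.891, edgeR quasi-likelihood). Its relative ESRRA, which directs genes of oxidative metabolism, had 33.4 and 11.9 CPM in ATRA cells and 41.0 and 21.4 CPM in ethanol cells. Number 2 was lower in both groups, and the groups overlapped (log2 -0.46 ± 0.56; adjusted p 0.794, edgeR quasi-likelihood). ESRRB had 1 or 2 reads per library.

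Of the 3 thyroid hormone and vitamin D receptor genes, THRA alone passed the filter on low counts. THRA (chromosome 17) had 39.9 and 36.4 CPM in ATRA cells, against 50.4 and 54.9 CPM in ethanol cells. The groups did not overlap, and the log2 fold change was -0.46 ± 0.24, with -0.33 and -0.59 within numbers 1 and 2 (adjusted p 0.419, edgeR quasi-likelihood). THRB had 0 and 6 reads in ATRA cells and 4 and 8 in ethanol cells, and the vitamin D receptor VDR had 3 and 0 in ATRA cells and 0 and 1 in ethanol cells. THRA shares exon bases on the opposite strand with NR1D1, so the same limit on strand applies to both. In all, 9 of the 27 members tested share exon bases with a gene on the opposite strand in GENCODE 29.

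The receptors of the circadian clock overlapped between groups. NR1D2 (chromosome 3), a heme-binding repressor of the clock, had 27.2 and 43.1 CPM in ATRA cells and 22.3 and 48.5 CPM in ethanol cells. Number 2 was higher in both groups, by 0.66 on the log2 scale in ATRA cells and 1.11 in ethanol cells, while the difference between groups was -0.01 ± 0.44. NR1D1, its paralog, and RORA, an activator at the same DNA sites, were at log2 -0.03 ± 0.49 and -0.01 ± 0.28. All 3 had adjusted p of 0.991 or more (edgeR quasi-likelihood). RORB had 1 read in 1 library, ethanol 2.

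Among the immediate early orphans, NR4A1 (chromosome 12), which is induced by growth factors and activity, had 12.1 and 14.4 CPM in ATRA cells, against 19.2 and 18.0 CPM in ethanol cells. The groups did not overlap, and the log2 fold change was -0.49 ± 0.30 (adjusted p 0.510, edgeR quasi-likelihood). NR4A2, needed for midbrain dopamine neurons, and NR4A3 were low, with between 4 and 28 reads per library and log2 fold changes of -0.24 ± 0.87 and -0.46 ± 0.77. The testicular orphan receptors NR2C1 (chromosome 12) and NR2C2 were at log2 -0.07 ± 0.35 and 0.06 ± 0.30. NR2C1 had 30.8 and 47.4 CPM in ATRA cells and 32.1 and 49.9 CPM in ethanol cells, again higher in number 2 of both groups. NR6A1, a receptor of germ cells and early embryos, was at -0.56 ± 0.58 on the log2 scale.

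Receptors known from the adrenal cortex and liver had few or no reads. HNF4G (chromosome 8) had 42 and 36 reads in ATRA cells and 19 and 35 in ethanol cells, or 2.85 and 2.15 CPM in ATRA cells and 1.46 and 1.73 CPM in ethanol cells. The groups did not overlap in CPM, and the log2 fold change was 0.64 ± 0.54 (adjusted p 0.673, edgeR quasi-likelihood). HNF4A had 0 and 3 reads in ATRA cells and 0 and 1 in ethanol cells. NR5A1, the master regulator of steroid-producing cells, had 1 and 0 reads in ATRA cells and 3 and 1 in ethanol cells, and NR5A2 had 1 and 1 in ATRA cells and 0 in both ethanol libraries.

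NR0B1 (chromosome X), which lacks the usual DNA-binding domain and represses NR5A1, had 7 and 6 reads in ATRA cells and 0 in both ethanol libraries. It was at least 2.19-fold higher in mean CPM in ATRA cells, computed against a floor of 3 counts per ethanol library, a bound that takes the ATRA reads as they are. It failed the filter on low counts and so had no test. In the fit with every gene of at least 1 count its adjusted p was 0.0912 (edgeR quasi-likelihood). Its relative NR0B2 had 0 reads in both ATRA libraries and 3 and 1 in the ethanol libraries.

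Samples differed by number as well as by treatment among the receptors. Within number 1 and within number 2 alike, 8 of the 27 members tested were higher in ATRA cells and 10 were lower, while 9 had opposite signs in the pair. The signs agreed for 73.6% of all genes tested. NR2C1, PPARA, NR1D2 and NR4A2 were higher in library 2 than in library 1 of both groups by at least 0.5 on the log2 scale, and NR2E3 and ESRRA were lower by as much. Those 4 and 2 members stand beside 11.3% and 15.2% of all genes tested.

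The partners of these receptors differed unevenly. Of the 6 retinoic acid and retinoid X receptors, 5 were tested and RARB rose, with 34.4 and 66.9 CPM in ATRA cells against 1.54 and 1.78 CPM in ethanol cells (log2 4.92 ± 0.46, adjusted p 0.0319, edgeR quasi-likelihood). RARA, the relative that ATRA also binds, had 73.4 and 52.7 CPM in ATRA cells and 22.7 and 21.3 CPM in ethanol cells, at log2 1.52 ± 0.28, and DESeq2 called it while edgeR's quasi-likelihood test did not (adjusted p 0.0760). RXRA, a shared dimer partner, had 21.7 and 15.7 CPM in ATRA cells and 36.5 and 38.4 CPM in ethanol cells. It was at log2 -1.0 ± 0.29 (adjusted p 0.170, edgeR quasi-likelihood). RXRB lay the other way, with 37.9 and 33.6 CPM in ATRA cells and 21.3 and 26.8 CPM in ethanol cells. It was at log2 0.57 ± 0.27 (adjusted p 0.377, edgeR quasi-likelihood). Mean CPM per kb was 9.13 in ATRA cells and 6.14 in ethanol cells for RXRB, against 1.69 and 3.38 for RXRA. RARG was at log2 0.04 ± 0.50. RXRG had 0 reads in all libraries. Of 13 coactivator genes 0 passed (median log2 0.09), and the 2 with the smallest p were NCOA3 at 1.10 ± 0.31 and PPARGC1B, a coactivator of the estrogen-related receptors, at -1.28 ± 0.46. Of these coactivators 3 had an unadjusted p under 0.05, beside 15.9% of all genes, and DESeq2 called 0, beside 6.18%.

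Among 13 corepressors and COUP-TF partners, ZFPM2 fell (median log2 of the list -0.06). ZFPM2, a zinc finger cofactor of GATA factors that also binds COUP-TF proteins, had 3.73 and 4.25 CPM in ATRA cells, against 28.7 and 21.5 CPM in ethanol cells. Its log2 fold change was -2.65 ± 0.35, with -2.91 and -2.30 within numbers 1 and 2 (adjusted p 0.0435, edgeR quasi-likelihood). Limma-voom did not call it (adjusted p 0.0633). Other members missed the threshold, such as the corepressor NCOR1 at -0.06 ± 0.28 and ZFPM1, a relative of ZFPM2, at 2.69 ± 0.49 (adjusted p 0.0753, edgeR quasi-likelihood), which DESeq2 called.

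Listed target genes of the lipid sensors included 2 that rose. ANGPTL4, a secreted inhibitor of lipoprotein lipase, had 24.7 and 15.9 CPM in ATRA cells, against 1.23 and 0.892 CPM in ethanol cells (log2 4.26 ± 0.46, adjusted p 0.0382, edgeR quasi-likelihood). It was 1 of 10 PPAR targets tested, whose median log2 fold change was 0.97 beside 0.01 for all genes. Both ATRA libraries lay above both ethanol libraries for 6 of those 10 and below them for 0, beside 23.8% and 21.7% of all genes. CPT1A, the gate for fatty acid entry into mitochondria, was at 1.59 ± 0.24 on the log2 scale (adjusted p 0.0568, edgeR quasi-likelihood). ACADVL, also on the list, was at 1.24 ± 0.25 (adjusted p 0.0923, edgeR quasi-likelihood). DESeq2 called ANGPTL4, CPT1A and ACADVL, beside 6.18% of its genes. An unadjusted p under 0.05 was reached by 5 of the 10 PPAR targets, beside 15.9% of all genes (edgeR quasi-likelihood). The classic fat cell target FABP4 had 2 and 0 reads in ATRA cells and 0 in both ethanol libraries.

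Among 10 LXR targets tested, a list that also holds NR1H3 itself, ABCA1 rose. ABCA1, the cellular cholesterol exporter, had 29.3 and 11 CPM in ATRA cells, against 0.462 and 0.496 CPM in ethanol cells (log2 5.37 ± 0.66, adjusted p 0.0410, edgeR quasi-likelihood). The others did not pass, among them ABCG4 at 1.91 ± 0.91, APOE at 1.68 ± 0.78 and SMPDL3A at 0.98 ± 0.48. ABCG1 was at 0.39 ± 0.37 and SREBF1 at -0.22 ± 0.23, and the list median was 0.51. Both ATRA libraries lay above both ethanol libraries for 3 of the 10 and below them for 1, beside 23.8% and 21.7% of all genes. Limma-voom called neither ANGPTL4 (adjusted p 0.0548) nor ABCA1 (0.0932), and it did not call RARB (0.0515). The other 10 alternatives called all 3.

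The remaining target lists had 0 calls in the main test. The shares to set their counts against are 15.9% of all genes at an unadjusted p under 0.05 and 6.18% called by DESeq2. Of 14 clock genes tested, 6 had an unadjusted p under 0.05 (list median -0.08). On the higher side these were the repressors BHLHE40 at log2 1.88 ± 0.33, NFIL3 at 2.07 ± 0.54 and BHLHE41 at 2.20 ± 0.72, and DESeq2 called BHLHE40 and NFIL3. On the lower side they were PER2 at -1.16 ± 0.45, DBP at -1.11 ± 0.35 and TEF at -1.05 ± 0.32. Of 9 thyroid hormone and vitamin D genes, 5 had an unadjusted p under 0.05, with HR, a thyroid hormone-induced corepressor, at -1.22 ± 0.26 and the transporter SLC16A10 at -1.86 ± 0.60, both called by DESeq2 (median 0.07). Of 10 glucocorticoid receptor targets 1 had an unadjusted p under 0.05, namely CEBPD at 3.36 ± 1.05, which DESeq2 called. CEBPD had 7.25 and 1.14 CPM in ATRA cells, against 0.231 and 0.545 CPM in ethanol cells. Its difference was 4.38 within number 1 and 0.91 within number 2 on the log2 scale, so ATRA 1 alone was high. FKBP5 was at -0.49 ± 0.40. Of 6 steroidogenic genes 2 had an unadjusted p under 0.05, AMHR2 at 2.11 ± 0.59 and SCARB1 at -0.71 ± 0.23, and DESeq2 called AMHR2. Of 4 estrogen, progesterone and bile acid receptor targets 0 had an unadjusted p under 0.05 and DESeq2 called 0; GREB1 was at 0.64 ± 0.32 and MYBL1 at -0.80 ± 0.48.

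**Figure D5:**
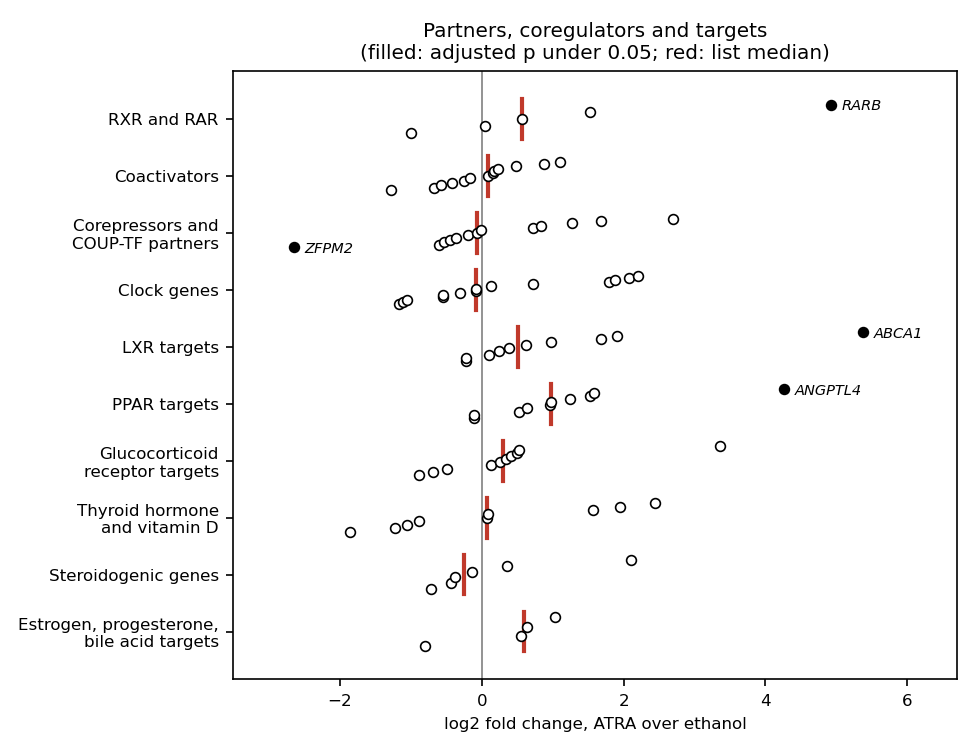
Log2 fold change of ATRA over ethanol for the tested members of 10 lists of partners, coregulators and target genes; filled points passed adjusted p 0.05 in edgeR and the red bar is the list median. RARB, ABCA1 and ANGPTL4 stand to the right and ZFPM2 to the left, while the other points are open.

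Markers of other cell types differed in part between the groups. Fibroblast markers summed to 416 and 600.8 CPM in ATRA cells and 397.2 and 701 CPM in ethanol cells, and 1 of 7 tested, COL3A1, rose (adjusted p 0.0459, edgeR quasi-likelihood). COL3A1 was called in 8 of 11 alternatives, and those that did not call it included limma-voom (adjusted p 0.116) and the fit without ethanol 1. It had 112 and 27.7 CPM in ATRA cells, against 0.539 and 1.09 CPM in ethanol cells. LUM, a matrix proteoglycan, was at log2 -2.22 ± 0.58, with an adjusted p of 0.145 in edgeR's quasi-likelihood test, and DESeq2 called it. The epithelial keratins KRT18 and KRT8 were at log2 4.70 ± 0.70 and 2.92 ± 0.70 (adjusted p 0.0533 and 0.123, edgeR quasi-likelihood), and 0 of 4 epithelial markers passed in edgeR, while DESeq2 called both keratins; the markers' sum was 12.4 and 21.4 CPM in ATRA cells and 6.78 and 6.49 CPM in ethanol cells. Immune markers summed to 20.6 and 7.12 CPM in ATRA cells and 3.54 and 1.78 CPM in ethanol cells, with CD14, which DESeq2 called, at log2 2.58 ± 0.64 and with CD68 and LYZ at 0 reads in every library. Schwann and glial markers summed to 18.2 and 22.7 CPM in ATRA cells and 8.85 and 12.7 CPM in ethanol cells. Of 5 tested, 0 were called in edgeR, 2 had an unadjusted p under 0.05 and DESeq2 called 1. The shares over all genes to set these marker counts against are 0.698% called in edgeR, 15.9% at an unadjusted p under 0.05 and 6.18% called by DESeq2. Of the sympathoadrenal markers 3 of 12 fell, namely HAND1, GATA3 and CHGA, and the list summed to 3879 and 3181 CPM in ATRA cells and 7875 and 6021 CPM in ethanol cells. Limma-voom called CHGA but not HAND1 (adjusted p 0.0515) or GATA3 (0.0505). Endothelial and hepatocyte markers stayed at or below 1.02 CPM in sum, with 0 tested, and 1 of 5 adrenocortical markers was tested and not called. Whether other cells or states had a part in the receptor levels was not tested.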

How the data were processed

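The files hold raw read counts per gene symbol that the authors deposited for 4 libraries. Per the submitters' processing notes, STAR 2.5.2b, featureCounts 1.5.1 and build hg19 were used; annotation, strand setting and handling of shared reads: not given in the sources used here. The table held 0 columns of other samples and no rows without a gene name.

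ATRA was compared with ethanol with edgeR 4.0.16 in R 4.3.3: filterByExpr (minimum count 10), TMM scaling, quasi-likelihood F test with robust estimation, group as sole term, two-sided, Benjamini-Hochberg over all genes, threshold 0.05. SE was taken as log2 fold change over root F. CPM use TMM-scaled library sizes; differences within numbers use log2 CPM with a prior count of 2. Means are given with SD, n = 2. DESeq2 1.42.0 and limma 3.58.1 served as alternatives. The procedure was tested on simulated data. Promoter sequences and chromosomes came from RefSeq (GRCh38.p14), with windows for 35 of 40 members.

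The members, though defined by gene family, and the lists were chosen with earlier results of these data known. Described in full are members called, members of mean CPM of at least 1 whose groups do not overlap and whose log2 fold change is at least 1 in size, and the leading member of each of 10 role groups. Companion lists give the called genes (at most 3 per direction, by size), or, with no call, the 2 of smallest p; other genes were named after their values were seen. PECAM1 was not analysed here. Low reads limit precision, and intervals and floors cover counting error only.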

Additional observations from a re-analysis of the deposited data

How the results depend on the processing

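The count of receptor genes called was 0 in the main test and also with median-ratio size factors, library size alone, without mitochondrially encoded genes and with limma-voom. It was 1 with DESeq2, 2 when genes of low count were kept, 4 with a replicate block (the number in the titles), and 1 to 3 in fits without 1 library. Over all genes the counts were 132 in the main test, 50 with limma-voom, 1260 with DESeq2, 1821 with low-count genes kept, 4098 with the replicate block and 870 to 1442 without 1 library. Over the companion lists they were 11, and 2, 31, 34, 55 and 22 to 30 in the same order of settings. In fits without 1 library the lone library of its group is taken to vary like the others. The cause of these shifts was not tested.

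The block is a check only, since the titles do not say that a number marks a shared culture; across genes, deviations from the group means of the libraries numbered 1 correlated at 0.632. With it PPARG, NR2F6, NR2F2 and PPARA were called, 4 of the 27 members tested, beside 21.7% of all genes. The fibroblast marker COL3A1 was not called with the block.

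Of the 27 receptors tested, 15 kept their direction in all 11 alternatives and 12 did not, none of them called anywhere. In fits without 1 library the log2 fold change ran from -0.04 to 2.26 for NR2E3, -0.43 to 0.30 for NR2C1, -0.18 to 0.25 for NR2C2, -0.60 to 0.39 for NR1H2, -0.26 to 0.63 for NR1H3, -0.42 to 0.27 for NR1D1, -0.51 to 0.67 for NR1D2, -0.29 to 0.21 for RORA, -0.55 to 0.95 for ESR1, -1.38 to 0.10 for ESRRA, -1.20 to 0.47 for NR4A2 and -1.60 to 0.14 for NR4A3, and -0.11 to 0.99 for the marker KRT19. NR1D2 was at 0.03 with limma-voom and 0.05 with the block, and ESR1 at -0.01 with library size alone.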
